A study of Mus musculus with 11 samples.

Results

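A set of 8 genes that mark or drive the differentiation of B cells into plasma cells (PCs) was followed in RNA-seq libraries of light zone (LZ) germinal center (GC) B cells and memory B cells (MBCs). The genes were Prdm1, Irf4, Xbp1, Mzb1, Jchain, Sdc1, Slamf7 and Tnfrsf17, found by Ensembl identifier, and they are 8 of the 48795 genes of the deposited table. Spleen cells came from female mice of 8 to 12 weeks, 10 days after intravenous immunization with sheep red blood cells (SRBC). Myc WT mice carry the unaltered Myc gene. Myc VD mice carry the V394D substitution at the endogenous Myc locus, which abolishes the binding of MYC to MIZ1 and keeps that to MAX. LZ B cells of 4 Myc WT mice (numbers 1 to 4) and 4 Myc VD mice (numbers 5 to 8) were compared with each other, and MBCs of 3 of the Myc WT mice (numbers 1, 3 and 4) were compared with the Myc WT LZ B cells. After depletion with CD43 beads, both populations were sorted as B220+ cells lacking IgD and CD138, the LZ cells as Fas+ CD38neg with high CD86 and low CXCR4, and the MBCs as CD38+ CD273+. CD138 is the protein that Sdc1 encodes, and CD43 is carried by PCs, so the beads and gates were set to leave PCs out of every library.

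PC differentiation is driven by IRF4 and by BLIMP1, the product of Prdm1, which silences genes of the B cell program. XBP1, made active by splicing of its mRNA when the endoplasmic reticulum is under load, enlarges the secretory apparatus. Prdm1, Irf4 and Xbp1 are therefore the regulators among the 8 genes. Mzb1 encodes a chaperone of the endoplasmic reticulum that assists antibody assembly, and Jchain the joining chain of polymeric IgM and IgA. Sdc1 (CD138), Slamf7 (CD319) and Tnfrsf17 (BCMA, a receptor for the survival factors APRIL and BAFF) encode surface proteins of PCs. GC B cells selected in the LZ and MBCs can both become PCs.

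Values are TPM, a level that is divided by transcript length and scaled to one total in each library. For the tests, limma was run on log2(TPM + 1) for every gene whose mean over the libraries compared reached 1 TPM, and p-values were adjusted by Benjamini-Hochberg with a threshold of 0.05. Each of the 8 genes but Tnfrsf17, listed at 0 in all 11 libraries, was also tested by exact two-sided permutation. The smallest p of that test is 0.0286 for the group sizes used here. Cd79a and Cd79b, which mark B cells, were at 405.7 TPM or more in all 11 libraries, and the MBC libraries carried 200 to 276 TPM of Cd38 against 6.18 to 18.3 TPM in the LZ libraries. In bulk RNA, fewer cells that express a gene and less RNA per cell cannot be told apart.

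Transcripts of antibody assembly and Slamf7 were abundant in LZ B cells of both genotypes, where Sdc1 and Tnfrsf17 were near or at 0 in all but 1 library. In Myc WT LZ B cells the mean levels fell in the order Jchain, Mzb1, Slamf7, Xbp1, Irf4 and Prdm1, with Sdc1 at or under 0.12 TPM and Tnfrsf17 listed at 0. The ranges of Jchain, Mzb1 and Slamf7 overlapped, whereas Xbp1 lay below all of them, Irf4 below Xbp1 and Prdm1 below Irf4 in every mouse. In Myc VD LZ B cells the order of the means was Slamf7, Jchain, Mzb1, Xbp1, Irf4 and Prdm1, with overlapping ranges for each neighbouring pair down to Xbp1 and none from Xbp1 to Irf4 and from Irf4 to Prdm1. In MBCs it was Jchain, Slamf7, Xbp1, Mzb1, Irf4 and Prdm1, with overlapping ranges for each neighbouring pair except Slamf7 and Xbp1, which did not overlap.

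**Figure D1:**
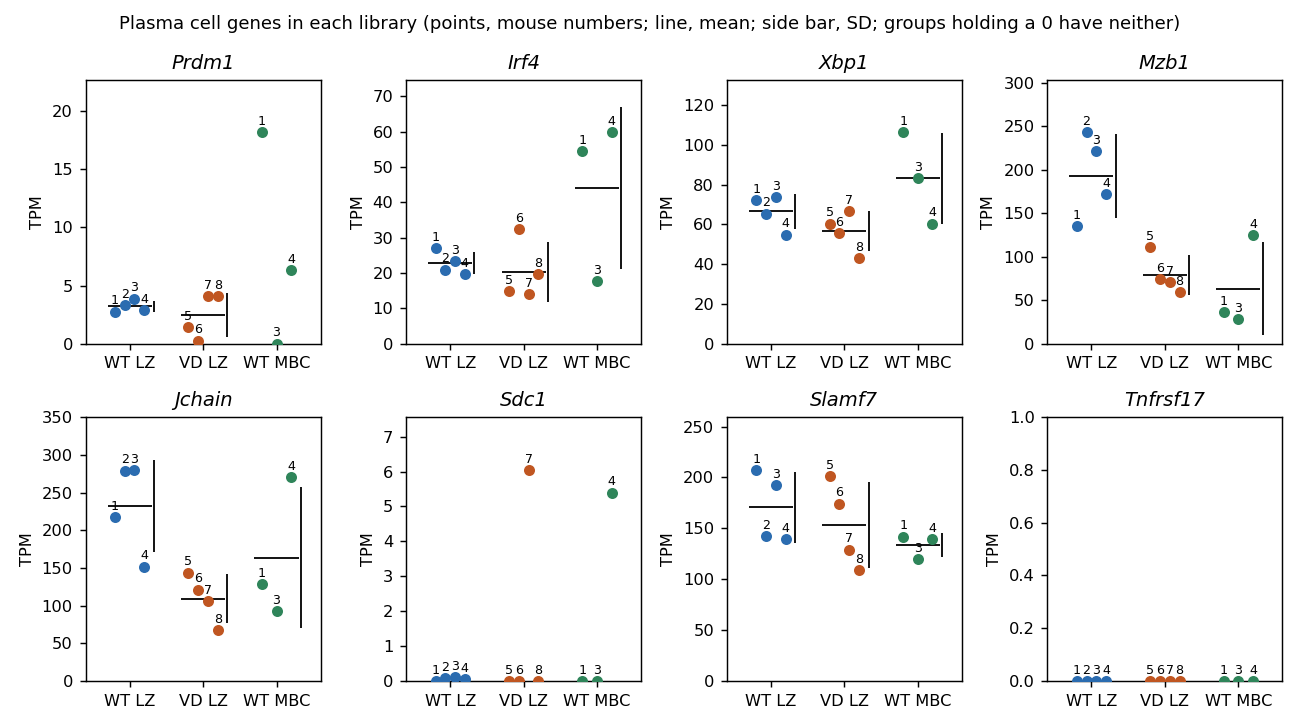
TPM of each of the 8 genes (vertical axes, linear, from 0) in the 4 Myc WT LZ, 4 Myc VD LZ and 3 Myc WT MBC libraries; points are libraries with their mouse numbers, lines are means and side bars SDs, left out where a library is listed at 0. Jchain and Mzb1 of the Myc VD libraries lie below all Myc WT LZ libraries, Tnfrsf17 is at 0 throughout, and the MBC libraries of mice 1, 3 and 4 spread widely for Prdm1 and Irf4.

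The promoters of Jchain and Tnfrsf17 are shown because Jchain is a gene whose levels separated the LZ genotypes and Tnfrsf17 was the gene listed at 0 throughout. Promoter windows of 7 of the 8 genes were taken from RefSeq (GRCm38.p6), and no window of Mzb1 is given. The 250 bases before the start site are given 5′ to 3′ on the gene's strand, for Jchain from chr5:88527898-88528147 (minus strand) and for Tnfrsf17 from chr16:11313559-11313808 (plus strand). Capitals mark matches on either strand to the motifs searched.
Jchain: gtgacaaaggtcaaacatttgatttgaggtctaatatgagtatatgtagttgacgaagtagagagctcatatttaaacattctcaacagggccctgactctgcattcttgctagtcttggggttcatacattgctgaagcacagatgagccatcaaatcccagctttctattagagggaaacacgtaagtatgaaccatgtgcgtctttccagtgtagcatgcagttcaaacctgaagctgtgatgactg
Tnfrsf17: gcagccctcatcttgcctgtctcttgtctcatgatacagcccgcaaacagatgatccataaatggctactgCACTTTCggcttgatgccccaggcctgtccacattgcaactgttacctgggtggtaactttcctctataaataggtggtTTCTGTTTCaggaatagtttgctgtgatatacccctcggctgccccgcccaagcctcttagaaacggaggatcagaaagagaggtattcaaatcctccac
The motifs were the E-box that MYC and MAX prefer (CACGTG), the octamer (ATTTGCAT), an XBP1 element core (TGACGTGG), a composite of ETS and IRF sites (GGAANNGAA), a repeat of IRF cores (GAAANNGAA) and a BLIMP1 core (GAAAGTG). In 32851 promoter windows of this length they occurred in 6.02%, 1.6%, 0.563%, 6.99%, 7.13% and 4.01%, in the same order. The windows of Prdm1 (chr10:44458749-44458998) and Slamf7 (chr1:171649000-171649249) lie inside the gene spans given further on. The upstream ends of those spans were not scanned. None of the motifs was found in the windows of Jchain, Prdm1, Irf4, Xbp1, Sdc1 or Slamf7. The Tnfrsf17 window held 1 IRF repeat and 1 BLIMP1 core, which do not overlap. These are matches of letters, with no measurement of binding.

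Mzb1, at chr18:35647267-35649367 (GRCm38), was lower in every Myc VD than in every Myc WT LZ library, although the difference did not pass the adjusted threshold. Its level was 135, 243, 221 and 172 TPM in Myc WT mice 1 to 4 and 111, 74.2, 71.0 and 58.9 TPM in Myc VD mice 5 to 8. The groups did not overlap, with Myc VD mouse 5 the closest to the Myc WT range. The means were 193 ± 48.4 TPM (SD, n = 4) and 78.8 ± 22.6 TPM (SD, n = 4), so that Myc VD held 40.9% of the Myc WT mean. The log2 difference was -1.28 with an SE of 0.25 (limma, 95% interval -1.84 to -0.73, adjusted p = 0.0805, unadjusted p = 0.000318). The exact permutation test gave p = 0.0286, the smallest possible. A gene model of GENCODE M21, SPATA24, covers 2100 bases of Mzb1 on the same strand, which strand-specific counting does not separate. No level of that model was used here, and whether reads were shared with it was not tested. Without Myc VD mouse 5 the difference was -1.46 (limma, adjusted p = 0.0369), and it was above the threshold without each other library in turn. With that mouse left out, 242 of 12846 genes (1.88%) were lower at the adjusted threshold, beside 5 of 12869 with all libraries.

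Jchain, at chr5:88519809-88527891 (GRCm38), behaved alike. It was at 218, 279, 280 and 152 TPM in Myc WT mice 1 to 4 and at 144, 121, 106 and 67.1 TPM in Myc VD mice 5 to 8. Again no Myc VD library reached the lowest Myc WT library, here by a narrow margin of 152 against 144 TPM. The means were 232 ± 61.1 TPM (SD, n = 4) and 109 ± 32.3 TPM (SD, n = 4), or 47.1% of the Myc WT mean. The log2 difference was -1.09 with an SE of 0.28 (limma, 95% interval -1.70 to -0.48, adjusted p = 0.122), and the exact permutation p was 0.0286. When the libraries were corrected for GC content of the transcripts, the groups overlapped for Jchain (log2 difference -0.76, exact permutation p = 0.0857).

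Both genes have to be read against the table as a whole, because most genes were lower in Myc VD. The median log2 difference of the 12869 genes tested was -0.31, and 73.7% of them were below 0. Of these genes, 9.16% had Myc VD libraries entirely below the Myc WT libraries, 15.7% were lower at an unadjusted p under 0.05, 0.0389% (5 genes) were lower at the adjusted threshold and 0.00777% (1 gene) was higher. Of the 6 PC genes tested, 2 were separated in that direction, and 0 of 6 passed the adjusted threshold in limma, against 2 at an unadjusted p under 0.05. Relative to the all-gene median, Mzb1 stood at -0.98 and Jchain at -0.78 on the log2 scale, and 4.07% and 7.28% of all genes had a lower difference. After the libraries were rescaled by median ratios, which left the all-gene median at -0.01, the differences were -0.94 for Mzb1 and -0.75 for Jchain, and both stayed separated between genotypes.

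Ribosomal RNA took 35.7 to 44.5% of the TPM in Myc WT LZ libraries and 44.1 to 61.3% in Myc VD LZ libraries, and 15460 to 19537 and 13169 to 16421 genes were above 0. Mitochondrial transcripts took 1.06 to 1.76% in Myc WT LZ, 1.95 to 2.35% in Myc VD LZ and 2.39 to 3.82% in MBC libraries, without overlap between the groups. Of 8 erythroid and megakaryocyte markers, 6, all of them erythroid, were tested between the LZ genotypes and 5 had a positive difference, with 0 past the adjusted threshold in limma, 3 higher at an unadjusted p under 0.05 (1.24% of all genes) and a median of 1.19 beside -0.31 for all genes. The summed level of the 8 was 116 to 226 TPM in Myc WT LZ and 71.9 to 409.6 TPM in Myc VD LZ libraries, and their part in the levels of Mzb1 and Jchain was not tested. Genes with short transcripts also had lower differences than long ones, with a median of -0.52 for transcripts of 569 to 1202 bases, where Mzb1 (904 bases) falls, -0.35 for those of 2321 to 2852 bases, where Jchain (2341 bases) falls, and -0.14 for those of 6194 bases or more. After a correction for transcript length the differences were -0.87 for Mzb1 and -0.74 for Jchain (limma, adjusted p = 0.193 and 0.289). The part of library quality in the genotype difference was not tested beyond these values, and the names of the mice share one prefix for Myc WT mice 1 to 3, another for Myc WT mouse 4 and yet another for all Myc VD mice, so that genotype and this grouping cannot be told apart.

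Ratios within a library do not depend on a scaling factor shared by all its genes. They do keep shifts that go with transcript length or GC content, which differ between these genes. The ratio of Jchain to Slamf7, chosen after the values were seen and given without a test, was 1.05, 1.96, 1.45 and 1.09 in Myc WT mice 1 to 4 and 0.714, 0.695, 0.818 and 0.618 in Myc VD mice 5 to 8. Jchain thus exceeded Slamf7 in 4 of 4 Myc WT libraries and in 0 of 4 Myc VD libraries. The ratio of Mzb1 to Slamf7 was 0.652 to 1.70 in Myc WT and 0.425 to 0.552 in Myc VD, also without overlap. The ratio of Jchain to Mzb1 overlapped, at 0.884 to 1.61 and 1.14 to 1.63.

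The 3 regulators did not differ detectably between the LZ genotypes. Xbp1, at chr11:5520659-5525893, was at 72.2, 65.4, 73.6 and 54.8 TPM in Myc WT mice 1 to 4 and 60.4, 55.8, 66.7 and 43.0 TPM in Myc VD mice 5 to 8. These ranges overlap, and the difference on the log2 scale was -0.24 ± 0.21 (SE, limma, 95% interval -0.71 to 0.23, adjusted p = 0.586). TPM per gene do not separate spliced from unspliced Xbp1 mRNA, so the active form was not measured.

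Irf4, at chr13:30749226-30766976, was at 27.1, 20.98, 23.4 and 19.7 TPM in Myc WT mice and 14.9, 32.4, 14.1 and 19.6 TPM in Myc VD mice. Myc VD mouse 6 was the highest and mice 5 and 7 the lowest of all LZ libraries. On the log2 scale the difference was -0.23 ± 0.29 (SE, limma, 95% interval -0.87 to 0.41, adjusted p = 0.717). Without Myc VD library 6 the groups did not overlap for Irf4, at a log2 difference of -0.47 (limma, adjusted p = 0.344, the range over the libraries left out being 0.344 to 0.900, exact permutation p = 0.0286). After rescaling by the median ratio both Xbp1 and Irf4 stood at 0.10, so neither has a direction.

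Prdm1, at chr10:44437177-44528501, was low in LZ B cells of both genotypes, at 2.76, 3.30, 3.87 and 2.85 TPM in Myc WT mice 1 to 4 and 1.44, 0.26, 4.07 and 4.08 TPM in Myc VD mice 5 to 8. The Myc VD libraries fell on both sides of the Myc WT range, mice 5 and 6 below it and mice 7 and 8 above it. On the log2 scale they differed by -0.48 ± 0.49 (SE, limma, 95% interval -1.56 to 0.59, adjusted p = 0.637). The interval covers falls as well as rises. The difference was -0.07 without Myc VD library 6 and -0.74 without Myc VD library 7 or 8 (limma, adjusted p = 0.944, 0.487 and 0.519).

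Of the surface molecules, Slamf7, at chr1:171632403-171653035, overlapped Mzb1 and Jchain in level in Myc WT LZ B cells and was above both in 4 of 4 Myc VD libraries. It was at 207, 143, 193 and 139 TPM in Myc WT mice 1 to 4 and 202, 174, 129 and 109 TPM in Myc VD mice 5 to 8. The log2 difference was -0.17 ± 0.24 (SE, limma, 95% interval -0.70 to 0.36, adjusted p = 0.749), and it was 0.17 after rescaling by the median ratio. Slamf7 overlaps an antisense transcript, Gm37787, over 1144 bases, which strand-specific quantification counts apart, and the miRNA gene Mir7683 on its own strand over 61 bases.

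Sdc1, at chr12:8771323-8793715, was at 0, 0.09, 0.12 and 0.06 TPM in Myc WT mice 1 to 4. In Myc VD mice it was listed at 0 in mice 5, 6 and 8 and at 6.05 TPM in mouse 7. One MBC library, that of mouse 4, had 5.40 TPM and those of mice 1 and 3 were listed at 0. Its mean was too low for limma, and the exact permutation p was 1 between the LZ genotypes and 0.429 between MBCs and Myc WT LZ B cells. Tnfrsf17, at chr16:11313812-11320074, was listed at 0 in all 11 libraries and could not be compared. Whether a value of 0 is a true absence is unknown here. Genes listed at 0 in 1 library and at 10 TPM or more in every other library of its group numbered 1 to 6 in each LZ library and 55, 152 and 6 in MBC libraries 1, 3 and 4, where the group has fewer libraries.

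**Figure D2:**
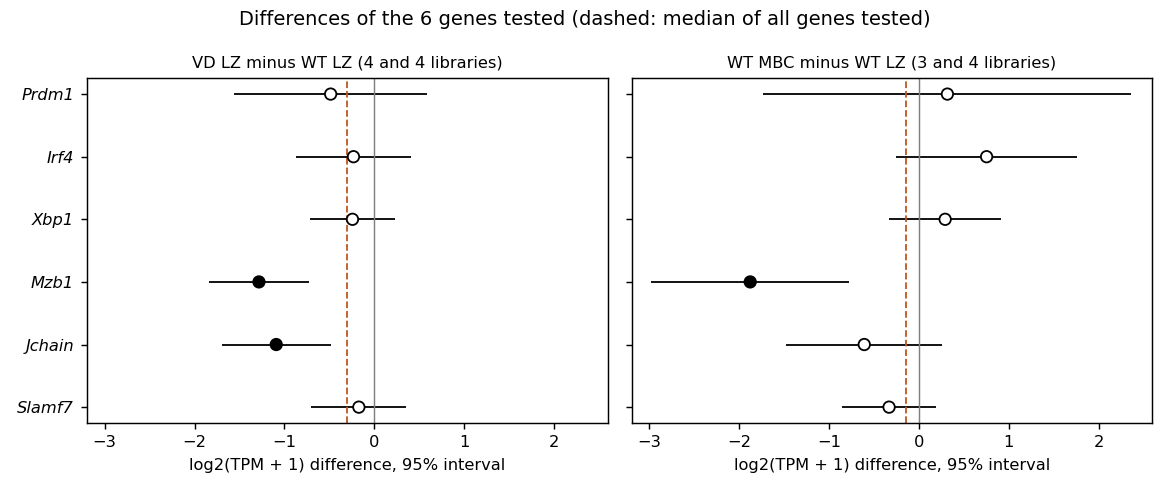
Difference in log2(TPM + 1) of the 6 genes that passed the filter, with 95% intervals from limma, for Myc VD minus Myc WT LZ B cells (left) and Myc WT MBCs minus Myc WT LZ B cells (right); filled points have groups that do not overlap and the dashed line is the median of all genes tested (-0.31 and -0.14). Mzb1 is left of the dashed line in both panels, and Jchain is filled only on the left.

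MBCs were compared with the LZ B cells of Myc WT mice, which also serve as the control of the genotype comparison, so the values of both comparisons are not independent. Mzb1 was lower in MBCs and was the one PC gene past the adjusted threshold there. MBCs held 36.6, 27.7 and 124.9 TPM in mice 1, 3 and 4, all below the lowest Myc WT LZ library at 135 TPM. Mice 1 and 3 were far below and mouse 4 close to it. The mean was 63.0 ± 53.7 TPM (SD, n = 3), or 32.7% of the LZ mean. The log2 difference was -1.88 with an SE of 0.49 (limma, 95% interval -2.98 to -0.78, adjusted p = 0.0462), and the exact permutation p was 0.0286. Of 13245 genes tested, 5.04% were lower at the adjusted threshold and 14.4% had MBC libraries entirely below the LZ libraries, beside 1 of 6 PC genes for each.

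The call of Mzb1 in MBCs lay close to the threshold. It was lost with the mouse as a replicate block, a fit without Myc WT LZ library 2 (log2 difference -1.76, limma, adjusted p = 0.102) and without Myc WT LZ library 1, 2, 3 or 4 or MBC library 1 or 3 (limma, adjusted p = 0.0812 to 0.131), and it was kept without MBC library 4 (log2 difference -2.52, limma, adjusted p = 0.00357), where 14% of all genes were lower at the adjusted threshold. Its direction was the same in all of these, and MBCs were below the LZ B cells of the same mouse in 3 of 3 mice. Transcripts of 579 to 1212 bases, among them Mzb1, had a median log2 difference of -0.63 in MBCs against -0.14 for all genes, and with a correction for transcript length the difference of Mzb1 was -1.28 (limma, adjusted p = 0.0552).

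Jchain did not follow Mzb1 in all MBC libraries. It was at 129, 92.2 and 270.4 TPM in mice 1, 3 and 4 and overlapped the LZ range of 152 to 280 TPM. Against LZ B cells of the same mouse it was at 0.591 and 0.329 times the level in mice 1 and 3 and at 1.78 times the level in mouse 4. The log2 difference was -0.61 ± 0.38 (SE, limma, 95% interval -1.48 to 0.26, adjusted p = 0.347). The ratio of Jchain to Mzb1 was 2.17 to 3.52 in MBCs and 0.884 to 1.61 in Myc WT LZ B cells, without overlap, a description chosen after the values were seen.

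Irf4 and Prdm1 were both higher in MBC libraries 1 and 4 than in MBC library 3. Irf4 was at 54.5, 17.8 and 59.8 TPM in mice 1, 3 and 4, above every LZ library in mice 1 and 4 and below every Myc WT LZ library in mouse 3. Its log2 difference was 0.75 ± 0.44 (SE, limma, 95% interval -0.25 to 1.76, adjusted p = 0.313). Without MBC library 3 it was 1.296 (limma, adjusted p = 0.0203), a setting in which 6.78% of all genes were higher at the adjusted threshold. Prdm1 was at 18.2 TPM in MBCs of mouse 1, listed at 0 in mouse 3 and at 6.32 TPM in mouse 4. Mice 1 and 4 were above all LZ libraries. The log2 difference of 0.32 ± 0.90 (SE, limma, 95% interval -1.73 to 2.37, adjusted p = 0.859) has an interval wide enough to hold changes in either direction, and it was -0.63 without MBC library 1 and 1.51 without MBC library 3.

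Xbp1 was at 106, 83.1 and 60.4 TPM in MBCs of mice 1, 3 and 4, higher than in LZ B cells of the same mouse in 3 of 3 mice, at 1.47, 1.13 and 1.10 times the level. This gave a log2 difference of 0.29 ± 0.27 (SE, limma, 95% interval -0.33 to 0.91, adjusted p = 0.533). Slamf7 was at 142, 120 and 139 TPM, lower than in LZ B cells in 3 of 3 mice (139.06 against 139.14 TPM in mouse 4), with a log2 difference of -0.33 ± 0.23 (SE, limma, 95% interval -0.86 to 0.19, adjusted p = 0.392).

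Between Myc VD LZ B cells and Myc WT MBCs, the ranges of all PC genes but Tnfrsf17 overlapped. The exact permutation p ran from 0.114 for Xbp1 to 1 for Sdc1. Tnfrsf17, listed at 0 throughout, could not be compared. The share of all genes that overlapped was not computed for this pair, so the overlap does not measure how alike these groups are. Over the 3 pairs of groups, 3 of 21 exact tests had an unadjusted p under 0.05, those of Mzb1 in both comparisons with Myc WT LZ B cells and that of Jchain between the LZ genotypes.

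The MBC libraries that differed in Prdm1, Irf4, Sdc1 and Jchain also differed in RNA of other cell types. MBC library 1, with 18.2 TPM of Prdm1, held 4 of 8 markers of plasmacytoid dendritic cells, Siglech at 11.02, Ccr9 at 13.1, Klk1 at 4.15 and Cox6a2 at 4.76 TPM, which were each at 1.55 TPM or less elsewhere. Of the other 4 markers, Lag3 was at 4.02 TPM there and at most 1.87 TPM elsewhere, Bst2 (10.2 TPM) and Pacsin1 (22.7 TPM) were within the range of the other libraries, and Cd300c was listed at 0 in all 11 libraries. The summed level of the 8 markers was 39.5 to 70.0 TPM in MBCs, 32.9 to 41.5 TPM in Myc WT LZ and 19.3 to 32.2 TPM in Myc VD LZ libraries. MBC library 3, with Prdm1 listed at 0, held hemoglobin RNA at 1646 TPM of Hba-a1 and 2609 TPM of Hbb-bs, with at most 27.6 and 194 TPM in the other libraries. MBC library 4, with the most Irf4, Sdc1, Jchain and Mzb1 among MBCs, held 136 TPM of Lyz2, a myeloid marker, with at most 31.2 TPM elsewhere. The summed level of 11 T and NK cell markers was 43.8 TPM in that library, 24.1 TPM in Myc VD LZ library 5, at most 13.6 TPM in the other LZ libraries and 0 in MBC libraries 1 and 3. Of these markers Trac was at 17.7 TPM in MBC library 4 and at most 2.82 TPM elsewhere, whereas Cd3e, Trbc2 and Cd4 were highest in Myc VD LZ library 5, Gzma in Myc VD LZ library 6 (13.2 TPM), and Gzma and Ncr1 were listed at 0 in MBC library 4. Summed levels of 10 myeloid markers were 41.3 to 189.7 TPM in MBCs and at most 12.7 TPM in LZ libraries, and Csf1r and Itgam passed the adjusted threshold in MBCs. Fkbp11, a secretory gene of PCs, was at 3.23 TPM in MBC library 4 and at 0.28 TPM or less in the others. The part of these cells in the levels of PC genes was not tested.

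**Figure D3:**
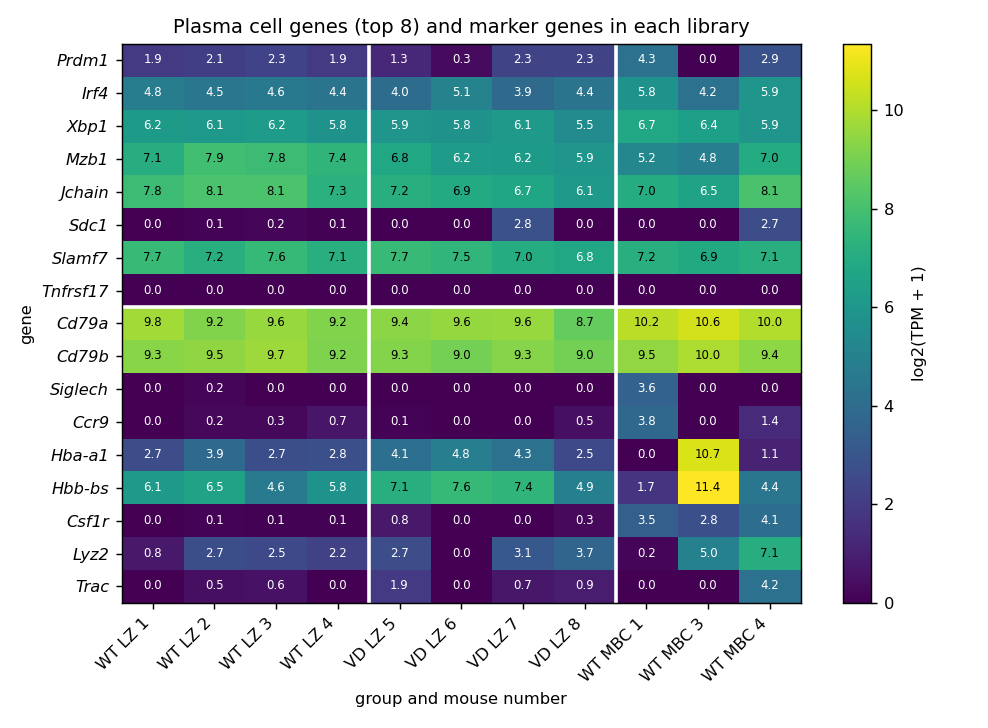
log2(TPM + 1) (color and printed value) of the 8 PC genes (top), 2 B cell markers and 7 markers of other cells (rows) in the 11 libraries (columns, by group and mouse). Siglech and Ccr9 are high in MBC library 1 alone, hemoglobin genes are highest in MBC library 3 and Lyz2 and Trac in MBC library 4, while Cd79a and Cd79b are high throughout.

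The genes around the 8 were described with lists of known members of each group. Of 11 other regulators of PC differentiation, 10 were tested between LZ genotypes, and 0 passed the adjusted threshold in limma (at an unadjusted p under 0.05, 1 lower and 0 higher, beside 15.7% and 1.24% of all genes), with a list median of -0.14 beside -0.31 for all genes (0.21 after rescaling by the median ratio). The lowest was Eaf2, a partner of the elongation factor ELL2 in GC B cells, at 211 TPM in Myc WT and 82.5 TPM in Myc VD (log2 difference -1.36, limma, adjusted p = 0.0659). Ube2j1, which acts in the disposal of misfolded proteins, was at 115 and 160.3 TPM (limma, adjusted p = 0.441). In MBCs 1 of 11 rose and 1 fell, with a list median of 0.35 beside -0.14 for all genes. Of all genes tested in MBCs, 4.17% were higher and 5.04% lower at the adjusted threshold, the shares against which the MBC counts of this and the following lists are to be read. Aff1, a scaffold of the elongation complex, rose from 4.15 to 40.5 TPM (log2 difference 3.05, limma, adjusted p = 0.00527), and Eaf2 fell to 18.9 TPM (log2 difference -4.40, limma, adjusted p = 0.026).

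Transcription factors of the B cell and GC programs, which oppose PC differentiation, gave no call between LZ genotypes. Of 9 tested out of 10, 0 passed the adjusted threshold in limma and 0 had an unadjusted p under 0.05 (beside 15.7% lower and 1.24% higher of all genes). The median was -0.18 beside -0.31 for all genes, and it was 0.16 after rescaling by the median ratio. Id3 (46.9 TPM in Myc WT and 33.05 TPM in Myc VD) and Spib (245 and 203 TPM) had the largest differences (limma, adjusted p = 0.336 and 0.536). In MBCs 1 rose and 1 fell of 9 tested (4.17% and 5.04% of all genes), with a median of 0.35 beside -0.14. Bcl6, the master regulator of GC B cells, fell from 185 to 41.7 TPM (log2 difference -2.20, limma, adjusted p = 0.00594). Mta3, a corepressor partner of BCL6, rose from 67.3 to 134.9 TPM (log2 difference 1.01, limma, adjusted p = 0.0372).

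Genes of the secretory pathway and the unfolded protein response, many of them targets of XBP1, gave 0 calls of 24 tested between LZ genotypes in limma, with 10 lower and 0 higher at an unadjusted p under 0.05, beside 15.7% and 1.24% of all genes. Their median was -0.47, and 18 of 24 were below the all-gene median of -0.31. The lowest were Spcs2, a subunit of the signal peptidase, at 78.8 TPM in Myc WT and 28.3 TPM in Myc VD (log2 difference -1.48, limma, adjusted p = 0.0634), and Ssr4, a subunit of the translocon-associated complex, at 30.2 and 12.5 TPM (log2 difference -1.26, limma, adjusted p = 0.108). In MBCs 1 of 25 rose and 4 fell (4.17% and 5.04% of all genes), with a median of -0.47 beside -0.14. The gene that rose was Pdia4, a protein disulfide isomerase (27.3 to 127 TPM, log2 difference 2.20, limma, adjusted p = 0.00325). Those that fell included Fkbp2 (log2 difference -2.57), Spcs1 (-2.43) and the translocon subunit Sec61b (-1.68; limma, adjusted p = 0.00352, 0.0494 and 0.0244). With a correction for transcript length the list median was -0.16 in Myc VD and -0.09 in MBCs.

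A list of surface, survival and related genes of PCs, not all of which encode surface proteins, gave 0 calls of 11 tested between LZ genotypes in limma. Its median was -0.48. At an unadjusted p under 0.05 in limma, 1 was lower and 0 were higher, beside 15.7% and 1.24% of all genes. Lgals1 and Selplg had the largest differences, at 8.56 and 6.43 TPM and at 3.69 and 1.87 TPM in Myc WT and Myc VD (limma, adjusted p = 0.519 and 0.550). In MBCs 3 of 11 rose and 0 fell (4.17% and 5.04% of all genes), with a median of 0.48 beside -0.14. The genes that rose were the integrin subunits Itgb7 (1.96 to 40.1 TPM, log2 difference 3.82) and Itga4 (15.8 to 132.5 TPM, 2.91) and Tnfrsf13b, which encodes TACI, a receptor for APRIL and BAFF like BCMA (98.1 to 236 TPM, 1.203; limma, adjusted p = 0.00212, 0.00303 and 0.0389). TACI and the BAFF receptor gene Tnfrsf13c, at 391 to 938 TPM, were thus well expressed in libraries where Tnfrsf17 was listed at 0.

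Immunoglobulin constant region genes gave 0 calls of 12 between LZ genotypes in limma (at an unadjusted p under 0.05, 2 lower and 0 higher, beside 15.7% and 1.24% of all genes), with a median of -0.36 close to that of all genes. Ighe (7.74 TPM in Myc WT and 4.25 TPM in Myc VD) and Ighg2c (30.1 and 17.9 TPM) had the largest differences (limma, adjusted p = 0.422 and 0.425). In MBCs 6 of 12 rose and 0 fell (4.17% and 5.04% of all genes), with a median of 1.28 beside -0.14. Igha rose most, from 5.59 to 595 TPM (log2 difference 6.57), followed among those called by Ighd (1.92), Ighm (1.79) and Ighg2b (1.71; limma, adjusted p = 0.00027 to 0.0177 over these). The joining chain gene Jchain, whose product links IgA and IgM, was at -0.61 (limma, adjusted p = 0.347) in the same comparison, in which Igha and Ighm rose.

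**Figure D4:**
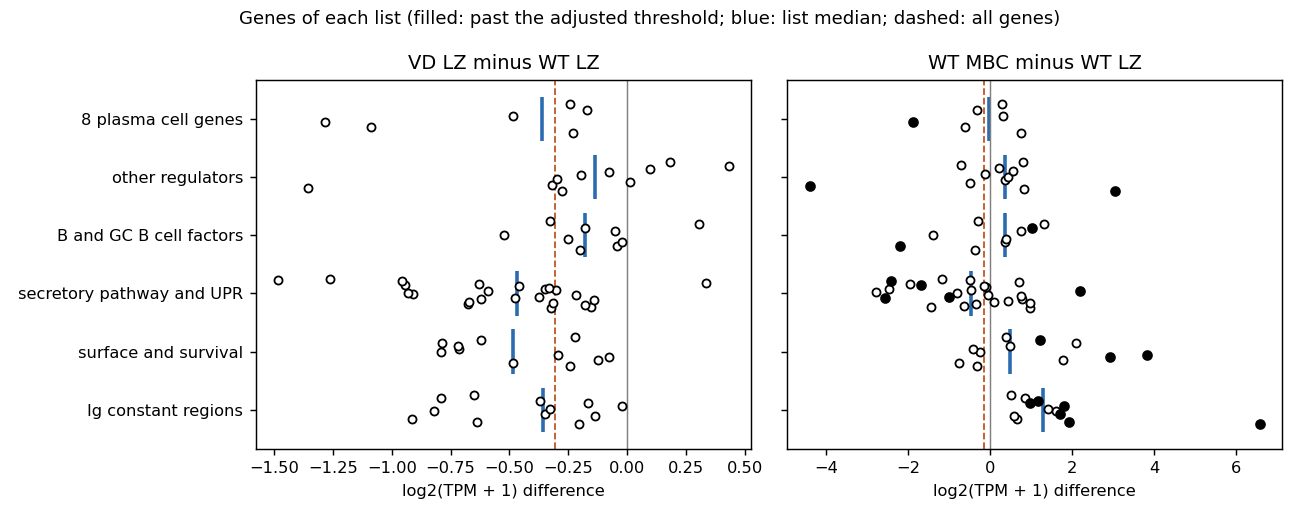
Difference in log2(TPM + 1) (horizontal axes, scaled separately) of every tested gene of each list, for Myc VD minus Myc WT LZ B cells (left) and Myc WT MBCs minus Myc WT LZ B cells (right); filled points passed the adjusted threshold, blue lines are list medians and the dashed line is the median of all genes. No point is filled on the left, and on the right the immunoglobulin genes lie to the right of 0 while the secretory genes spread on both sides.

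The genes most like each PC gene across the 11 libraries, by Pearson's r of log2(TPM + 1) over 10125 protein-coding genes, differed between PC genes. These correlations describe libraries that share mice, sorts and scaling. Mzb1 was followed by Clta (r = 0.985), Atp5f1 (0.972) and Tmem14c (0.972), and Jchain by Capza1 (0.981), Prkar1a (0.964) and Zfx (0.943). Clta, for example, was at 209 to 321 TPM in Myc WT LZ, 128 to 184 TPM in Myc VD LZ and 79.8 to 203 TPM in MBC libraries. Xbp1 was most like Atp6v1e1 (0.977), Sar1a (0.975) and Cuta (0.950), Irf4 like Rhbdf1 (0.959), Pglyrp1 (0.924) and Gimap5 (0.906), and Slamf7 like Arf1 (0.947), D030056L22Rik (0.932) and Smc4 (0.917). For Prdm1 they were Prickle3 (0.965), Galnt6 (0.955) and Spata2 (0.949), which were also at their highest in MBC library 1 and lowest in MBC library 3 or Myc VD library 6. For Sdc1 they were Pilrb2 (0.998), Trpm2 (0.967) and Tsc22d1 (0.943), all at their highest in Myc VD library 7 and MBC library 4. Among the PC genes themselves Jchain and Mzb1 had the highest r, 0.790, and Xbp1 and Mzb1 the lowest, -0.315.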

How the data were processed

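LZ B cells and MBCs were profiled by RNA-seq, with 1 library per mouse and population. The authors aligned the reads with STAR 2.5.2a, quantified genes strand by strand with RSEM 1.3.0 on GRCm38, and deposited TPM with 2 decimals, which sum to the same total in each library, so depth is unknown and precision was taken from the spread between mice. The submitters' processing notes also name DESeq2 1.18.1, which was not used here because it needs counts. Symbols, positions and lengths came from GENCODE M21 (GRCm38), and promoters from RefSeq.

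Groups were compared with limma 3.58.1 (R 4.3.3, eBayes with a trend, 2 groups in each fit, two-sided) on log2(TPM + 1), keeping genes that reached 1 TPM on average in the fit, with a Benjamini-Hochberg threshold of 0.05, and by exact permutation over 70 or 35 groupings (Python 3.11.15). The fit was tested on simulated data. Libraries of mice 1, 3 and 4 pair by mouse, as the names of the mice show, but same-mouse deviations did not correlate (r = 0.0051, 0.0115 and -0.047). Named genes were the 8 PC genes, in each other list up to 4 genes past the threshold by size of difference (or the 2 largest differences), and the 3 genes most correlated with each PC gene. Outside this rule, Cd38, Tnfrsf13c, Fkbp11, Ern1, Selenos, Creld2 and the markers Klk1, Cox6a2, Lag3, Cd300c, Ncr1, Cd4, Hba-a1 and Hbb-bs were named after their values were seen. Some genes that the rule names are not reported here. The PC genes and lists were chosen with earlier results of these data known. Alternatives were another pseudocount, other filters on low values, rescaled TPM, removal of ribosomal RNA, mitochondrial and immunoglobulin genes, a fit of all groups together, limma without a trend, a replicate block for the mouse, each library left out, and, chosen after seeing the data, corrections for transcript length and GC content (loess span 0.5).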

Additional observations from a re-analysis of the deposited data

Results flagged for a closer look

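Sdc1 in the Myc VD LZ library of mouse 7 was at 6.05 TPM while the other 3 Myc VD libraries were listed at 0, so this library stands far from the rest of its group. It was the single such value among 62 groups of 4 libraries examined, over 32 genes. The usual rate of about 1 in 20 flagged by chance does not apply here. With the other 3 libraries tied at 0, any value above 0 is flagged. In that library Prdm1 was at 4.07, Jchain at 106 and Mzb1 at 71.0 TPM, within the range of the other Myc VD libraries, and Tnfrsf17 was listed at 0. The sort excluded CD138+ cells. The source of this RNA was not tested.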

How the results depend on the processing

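The differences of Mzb1 and Jchain kept their sign in all 18 alternatives of each comparison. Between LZ genotypes Mzb1 ranged from -1.46 to -0.87 (limma, adjusted p = 0.0369 to 0.487) and Jchain from -1.28 to -0.74 (0.0549 to 0.487), and the number of PC genes called was 0 in all but 1 alternative (0 to 1 with a library left out, the 1 being without Myc VD library 5). Xbp1, Irf4 and Slamf7 turned positive there when TPM were rescaled by the median ratio (0.10, 0.10 and 0.17), quantile normalized (0.0096, 0.016 and 0.14), freed of ribosomal RNA, mitochondrial and immunoglobulin genes (0.10, 0.10 and 0.18), corrected for transcript length (0.12, 0.0026 and 0.094) or for GC content (0.036, 0.10 and 0.17); Prdm1 did not. In MBCs, Mzb1 ranged from -2.52 to -1.28 (limma, adjusted p = 0.00357 to 0.131). The count of 1 PC gene called became 0 with a pseudocount of 0.1, without a filter, without a trend, with the length correction and with the mouse as a replicate block (Mzb1 at -1.90, -1.88, -1.88, -1.28 and -1.76), and 0 to 1 with a library left out; without MBC library 3 the 1 gene was Irf4. The block fit, on the mice with both libraries, changed no other call of a PC gene and left 130 higher and 118 lower genes in all, beside 205 and 137 without Myc WT LZ library 2, which that fit leaves out, and 552 and 667 with all libraries. Prdm1 in MBCs turned negative with a pseudocount of 0.1 (-0.52) and without MBC library 1 (-0.63), with a range of -0.63 to 1.51 over the libraries left out. The cause of these changes was not tested. List medians were recomputed in the same way, an addition made after seeing the data. Between LZ genotypes those of the other regulators (-0.28 to 0.21) and of the B cell and GC factors (-0.25 to 0.16) turned positive in the same 5 alternatives as Xbp1, whereas those of secretory (-0.55 to -0.13), surface (-0.79 to -0.10) and immunoglobulin genes (-0.57 to -0.015) stayed negative. In MBCs the surface median ranged from -0.05 (without a filter) to 0.84, and the other list medians kept their sign. Counts of calls in the lists also depended on the alternative. Without Myc VD library 5, 1 of 10 other regulators tested was lower between LZ genotypes at the adjusted threshold, beside 1.88% of all genes. TPM keep no depth, so low genes such as Prdm1, Sdc1 and Tnfrsf17 have unknown counting error.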

Other observations

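Markers that define the sorted populations were measured beside the PC genes. Of 10 GC markers tested in MBCs, 6 fell and 0 rose (5.04% and 4.17% of all genes), with a median log2 difference of -2.10, and of 10 MBC markers 9 rose, with a median of 3.71 that includes genes of the sort. Between LZ genotypes 0 of 10 GC markers and 0 of 9 MBC markers passed the adjusted threshold in limma (3 and 2 lower at an unadjusted p under 0.05, beside 15.7% of all genes). Hhex, a transcription factor of MBC differentiation, was at 14.6 TPM in Myc WT and 3.69 TPM in Myc VD LZ B cells (log2 difference -1.84, limma, adjusted p = 0.114), and its groups did not overlap.

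In MBC library 1 Ern1, which encodes the sensor IRE1 that splices Xbp1, was at 17.1 TPM, beside 2.85 TPM or less in the other libraries; it was chosen after its values were seen. Selenos and Creld2 were at 0 and 0.14 TPM there and at 6.75 TPM or more in all other libraries.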
